A study of Mus musculus with 2 samples.

Results

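The tumour necrosis factor gene Tnf, its receptor genes Tnfrsf1a and Tnfrsf1b, the NF-kB subunit genes Nfkb1, Nfkb2, Rela and Relb, the inhibitor gene Nfkbia and the related receptor genes Ltbr and Cd40 were followed as sender and receiver genes across the cell groups of the embryonic caudal region. The 10 genes were taken by name from both count tables, which list 24543 genes, of which 17784 had at least 1 UMI. All 10 had UMIs. The cells were CD31+CD44+ cells sorted at embryonic day 10.0 from mice on a C57BL/6 background. The cKO embryos carried VEC-Cre, a Cre transgene driven by the promoter of the endothelial gene Cdh5, with both Nupr1 alleles floxed, so deletion was directed at endothelial cells and their descendants. Controls in the paper were littermates of the genotypes Nupr1fl/fl and Nupr1fl/+, and their label in the series reads WT. Which of these genotypes the sequenced controls had is not given. Cells of both genotypes were marked with hashtag oligos and sequenced together on 10x Genomics lanes in 2 replicates, which gave 4 pools of cells (control and cKO, replicates 1 and 2). How many embryos each pool came from is not given in the sources used here, so the p-values below do not measure the spread between single embryos. In the genotype tests without a block they measure the spread between pools. In tests with the pool as a block they measure the spread of sums that is left within pools.

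Tnf is a cytokine made as a membrane protein and shed by the sheddase Adam17, and macrophages are a classical source. Tnfrsf1a, the receptor with a death domain, is found on most cell types, whereas Tnfrsf1b is mainly a receptor of blood and endothelial cells. Binding frees dimers of Rela and the Nfkb1 product p50 from the inhibitor encoded by Nfkbia, and Nfkbia is itself switched on by these dimers. Ltbr and Cd40 also feed a second route, in which the Nfkb2 product is cut to p52 and pairs with Relb. Inflammatory signalling of this kind is known to take part in the formation of blood stem cells from arterial endothelium.

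Cells were placed in groups by marker genes that are not among the 10. A cell was put in the macrophage group by C1qa, the megakaryocyte group by Gp9, the myeloid group by Mpo with Fcgr3, the EHT (endothelial to haematopoietic transition) group by Gfi1 with Neurl3, the arterial group by Gja5, and the plexus group (vessels outside the major arteries) by Kitl with Esm1. Of 2139 cells, 566 were in the macrophage, 202 in the megakaryocyte, 163 in the myeloid, 368 in the arterial, 47 in the plexus and 240 in the EHT group. A further 63 cells had the arterial and plexus markers together, 3 were mixed and 487 had none of the marker sets. The deposited pools held 334, 748, 344 and 713 cells (control 1, control 2, cKO 1 and cKO 2) and 14981582 to 46037450 UMIs. No cell barcode was shared by the tables. Nupr1 stood at 14.4 and 21.5 CPM (UMIs per 1000000) in the control pools and at 0.573 and 1.50 CPM in the cKO pools. Chromosome Y genes had a UMI in 90.7% of the cells of the first cKO pool and in 1.80% of the first control pool, and in no cell of replicate 2, so sex and genotype cannot be told apart within replicate 1. An Xist UMI was found in 94.6% and 98.7% of the cells of the control pools and in 3.49% and 57.6% of those of the cKO pools, so this X-linked marker also differed between the genotypes in replicate 2, and its part in the genotype differences was not tested. Median depth per cell ran from 22924.5 UMIs in the arterial to 88887 in the myeloid group. Of the markers outside the rule, 8 further macrophage genes summed to 4670 to 6237 CPM in the macrophage group and to 11.0 to 59.9 CPM in the EHT group, whereas 8 arterial genes summed to 2407 to 3535 CPM in the arterial group and to 265 to 608 CPM in the EHT group, and 8 EHT and stem cell genes to 1021 to 1218 CPM in the EHT group and at most 761 CPM in the other 5. The plexus name was not borne out in this way: 5 plexus and venous genes summed to 746 to 1384 CPM in the plexus and to 1072 to 1713 CPM in the arterial group, and the arterial genes to 748 to 1744 CPM in the plexus group. The word plexus therefore stands below only for cells with Kitl and Esm1 UMIs and no high Gja5.

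Upstream sequence was at hand in RefSeq (GRCm38.p6) for 7 of the 10 genes, in 9 windows from 250 bases before to 50 bases after a start site; Nfkb1, Relb and Cd40 had no entry. The windows were searched on both strands for the 10-letter kappa-B consensus, the NF-kB motif. It was found in 4 of the 9 windows, namely all 3 windows of Nfkb2 and the 1 window of Nfkbia, and in 8.46% of all 32851 windows of the table. A match is a description of letters and not a binding site. The 250 bases before the start are shown for the ligand Tnf (minus strand), which held no match, and for the inhibitor Nfkbia (minus strand) and the subunit Nfkb2 (plus strand), the genes with a match. Capitals mark the matched letters. They begin 29 bases before the start of Nfkbia and 236 bases before that of Nfkb2, whose window is the second of its 3.
Tnf, chr17:35202008-35202257: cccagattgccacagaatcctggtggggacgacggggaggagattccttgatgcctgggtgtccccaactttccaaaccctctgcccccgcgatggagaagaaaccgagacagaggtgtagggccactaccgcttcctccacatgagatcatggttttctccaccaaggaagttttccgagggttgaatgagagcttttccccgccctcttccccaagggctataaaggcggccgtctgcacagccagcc
Nfkbia, chr12:55492648-55492897: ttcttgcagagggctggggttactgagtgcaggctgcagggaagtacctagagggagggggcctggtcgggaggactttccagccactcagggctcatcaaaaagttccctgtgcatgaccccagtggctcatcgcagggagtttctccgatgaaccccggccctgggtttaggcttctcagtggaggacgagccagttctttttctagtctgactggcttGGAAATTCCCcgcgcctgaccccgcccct
Nfkb2, chr19:46305445-46305694: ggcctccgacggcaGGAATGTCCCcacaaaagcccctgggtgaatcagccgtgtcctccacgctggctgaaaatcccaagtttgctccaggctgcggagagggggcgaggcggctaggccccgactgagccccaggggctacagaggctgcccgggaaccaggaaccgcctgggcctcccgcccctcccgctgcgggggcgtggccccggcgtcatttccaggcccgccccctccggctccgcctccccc

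UMIs were summed per marker group, genotype and replicate, and every level below is a CPM of such a sum, in the order control 1, control 2, cKO 1, cKO 2. The sums held 227125 to 14237527 UMIs. The first cKO pool had no megakaryocyte group cells, and the first control pool had 4, so that group had 3 sums. Levels are compared between groups for the same gene and not between genes.

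The ligand was a macrophage gene in these cells. Tnf (chromosome 17, 35199381 to 35202007) stood at 83.7, 20.9, 23.7 and 36.6 CPM in the macrophage group, a mean of 41.2 ± 29.1 CPM (SD, n = 4). It stood at 4.23, 11.3, 2.57 and 8.83 CPM in the myeloid group and at 8.81, 4.97 and 3.81 CPM in the 3 megakaryocyte sums. In the EHT group it was at 0.803, 0.932, 0.978 and 1.67 CPM, from 3, 3, 4 and 6 UMIs. Every macrophage sum was above every sum of the other 5 groups. The myeloid and megakaryocyte sums overlapped each other and lay above the EHT sums, while the EHT, arterial (0.377 to 1.64 CPM) and plexus (0 to 2.70 CPM, 1 UMI in all) sums overlapped. Of the 1641 Tnf UMIs in the tables, 61.3% were in the macrophage group, 7.56% in the myeloid, 4.57% in the megakaryocyte and 0.98% in the EHT group, and 24.1% were in cells with none of the marker sets.

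Tnf was uneven among macrophages. A Tnf UMI was found in 247 of 566 cells (43.6%, exact binomial 95% interval 39.5 to 47.8), and the 57 cells with the most held 69.1% of the UMIs. In the first control pool 1 cell held 83 of the 124 UMIs. Without the highest cell of each pool the macrophage levels were 29.5, 18.9, 16.6 and 31.6 CPM, so the high control 1 value rested on that cell. After every cell was thinned to 10000 UMIs, which left out 9 shallower macrophage, 2 megakaryocyte, 3 myeloid, 38 arterial and 1 EHT group cells, 17.1% of macrophage group cells (14.0 to 20.4) kept a Tnf UMI, against 3.75% of myeloid (1.39 to 7.98), 3.00% of megakaryocyte (1.11 to 6.42), 1.82% of arterial (0.670 to 3.92) and 0.837% of EHT group cells (0.102 to 2.99; 5.00% unthinned). No plexus cell kept one, and 0 of 47 allows a share of up to 6.38% when 0 is read as at most 3 cells, or 7.55% by the exact interval. Intervals cover counting error only. Free RNA gives some UMIs in cells that do not transcribe a gene. It was gauged from 9 macrophage genes, C1qb, C1qc, Mrc1, Lyve1, F13a1, Dab2, Csf1r, Fcer1g and Tyrobp. At their ratio to Tnf in macrophages these would bring 10.3, 0.831, 1.07 and 3.20 Tnf UMIs into the EHT sums, where 3, 3, 4 and 6 were seen. The same gauge gave 30.5, 16.1, 2.52 and 37.1 UMIs for the myeloid sums, where 8, 62, 2 and 52 were seen, and 2.85, 16.2 and 23.0 UMIs for the megakaryocyte sums, where 2, 45 and 28 were seen. The number seen was thus below the gauge in the first control pool of all 3 groups and in the first cKO pool of the myeloid group, and above it elsewhere in them. In the first control pool the gauge includes the macrophage that held 83 of the 124 UMIs. It would be lower without that cell and was not taken again, so no reading is drawn from that pool. The 9 genes summed to 916 to 1517 CPM in the myeloid and 751 to 1070 CPM in the megakaryocyte sums. The 8 further macrophage genes that checked the groups summed to only 75.8 to 211 and 56.9 to 119 CPM there. Transcripts of the 9 genes that the cells made themselves would raise the gauge, and their share was not tested. The part of macrophage RNA in the Tnf levels outside the macrophage group was not tested further.

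The first receptor was broad. Tnfrsf1a (chromosome 6, 125349362 to 125362484) stood at 64.1, 82.2, 60.9 and 83.4 CPM in macrophages, 53.5, 81.7, 50.3 and 83.5 CPM in EHT, 53.2, 96.6, 46.7 and 95.3 CPM in arterial and 53.9, 122, 70.4 and 135 CPM in plexus sums. These 4 groups overlapped, and in each of them both replicate 2 sums were above both replicate 1 sums. Myeloid sums (34.4 to 65.7 CPM) overlapped the EHT sums. Megakaryocyte sums did not overlap those of any other group, at 0, 1.11 and 2.45 CPM. A UMI was left in 3.00% of megakaryocyte cells (1.11 to 6.42) and in 49.4% of EHT cells (42.9 to 55.9) after thinning.

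The second receptor was highest in the group that was highest for the ligand. Tnfrsf1b (chromosome 4, 145213463 to 145246870) stood at 66.1, 57.1, 60.5 and 48.5 CPM in macrophages, a mean of 58.1 ± 7.37 CPM (SD, n = 4). The EHT sums were 8.30, 4.66, 9.53 and 6.96 CPM and the myeloid sums 9.53, 12.1, 9.0 and 17.0 CPM. Macrophage sums were above all others, EHT overlapped both the myeloid sums and the arterial sums (3.84 to 6.42 CPM), and plexus (0 to 3.24 CPM) and megakaryocyte sums (0 to 0.663 CPM) were lowest and overlapped each other. After thinning, 43.8% of macrophage cells had a Tnfrsf1b UMI (39.6 to 48.0), as did 5.86% of EHT cells (3.24 to 9.63).

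Ltbr and Cd40 were highest in the endothelial groups. Ltbr (chromosome 6, 125306571 to 125313885), the receptor of lymphotoxin, stood at 51.7, 63.6, 44.2 and 76.5 CPM in arterial and 27.6, 36.7, 26.2 and 28.9 CPM in EHT sums. The arterial sums were all above the EHT sums, which overlapped the macrophage (24.3 to 31.8 CPM) and plexus (35 to 71.3 CPM) sums. Cd40 (chromosome 2, 165055627 to 165072948), best known from B cells and also an endothelial receptor, separated the groups by more. Its levels were 74.7, 102, 64.0 and 118 CPM in arterial and 105, 71.3, 123 and 116 CPM in plexus sums. EHT sums were 3.48, 12.7, 2.44 and 1.67 CPM, from 13, 41, 10 and 6 UMIs, and lay between the endothelial groups and the blood groups without overlap. This held for the EHT group as a whole only. In its cells low in Gja5, set apart below, the sums were 0 to 3.05 CPM and overlapped the myeloid sums (0 to 1.29 CPM). Macrophages held 6 Cd40 UMIs in all, myeloid cells 3 and megakaryocytes 1. After thinning, Cd40 had a UMI in 50.3% of arterial (44.8 to 55.8), 66.0% of plexus (50.7 to 79.1) and 4.60% of EHT cells (2.32 to 8.09), against 0.359% of macrophages (0.0435 to 1.29), which serve as the background here.

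Among the subunits, Rela of the classical dimer had the narrowest range of group means. Its partner Nfkb1 had means of 28.5 to 39.6 CPM in 5 groups and of 5.61 CPM in megakaryocytes, whereas those of Nfkb2 ran from 3.09 to 15.1 CPM and those of Relb from 0.617 to 28.7 CPM. Rela (chromosome 19, 5637483 to 5648130) had group means from 16.2 ± 2.95 CPM in myeloid to 27.6 ± 3.95 CPM in arterial sums (SD, n = 4), and every pair of neighbours in the order of the 6 groups overlapped except EHT and myeloid. Nfkb1 (chromosome 3, 135584655 to 135691547) stood at 42.8, 32.9, 43.3 and 39.5 CPM in EHT sums, each above the arterial sums (29.0 to 32.7 CPM), and at 0, 7.18 and 9.65 CPM in megakaryocyte sums, each below those of the other groups. Relb (chromosome 7, 19606217 to 19629438) was at 15.1, 22.7, 19.9 and 20.5 CPM in arterial and 5.89, 12.4, 3.42 and 7.24 CPM in EHT sums. The arterial sums were again all above the EHT sums. Relb in plexus sums spread widely, at 8.09, 32.7, 12.1 and 61.8 CPM, and overlapped both, while the myeloid sums (0 to 1.06 CPM) had the lowest mean and overlapped the megakaryocyte sums. Nfkb2 (chromosome 19, 46304320 to 46312385) stood at 8.68, 6.68, 17.9 and 12.7 CPM in arterial and 7.49, 7.14, 3.91 and 4.45 CPM in EHT sums, and each pair of neighbours in its order overlapped.

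The inhibitor gene Nfkbia (chromosome 12, 55489410 to 55492647) was highest in the plexus, arterial and macrophage groups, and its 6 group means ran in the same order as those of Tnfrsf1a. It stood at 273, 154, 215 and 218 CPM in macrophage, 155, 240, 215 and 290 CPM in arterial and 302, 264, 285 and 316 CPM in plexus sums. EHT sums were 121, 121, 89.7 and 102 CPM, all below the sums of those 3 groups. Myeloid sums (66.8 to 137 CPM) overlapped the EHT sums, and megakaryocyte sums (13.2 to 28.4 CPM) were below all others.

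**Figure D1:**
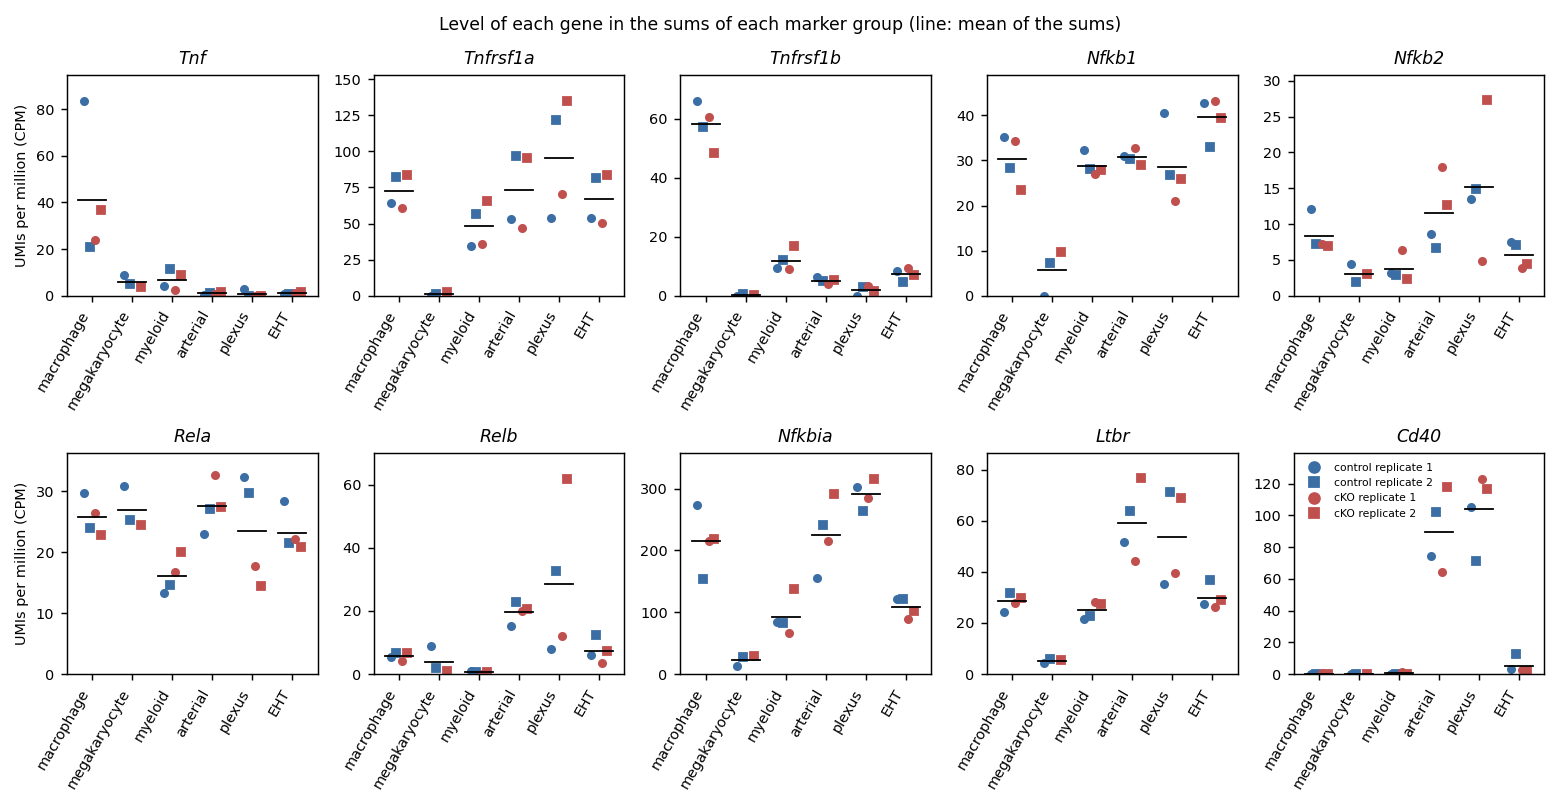
CPM (UMIs per 1000000) of the 10 genes in the sums of the 6 marker groups. Circles are replicate 1 and squares replicate 2, blue is control and red cKO, and the line is the mean of the sums. Tnf and Tnfrsf1b peak in the macrophage group (means 41.2 and 58.1 CPM), Cd40 in the plexus and arterial groups (104 and 89.6 CPM), and Tnfrsf1a is near 0 in the megakaryocyte sums only.

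Which cells differed from the EHT group was tested in 1 edgeR fit over the 23 sums with the pool as a block. Of 11429 genes tested, 24.6% were higher and 34.1% lower in macrophages than in EHT sums at an adjusted p under 0.05. All 10 genes were tested, and 3 were higher and 1 lower in macrophages. Tnf was higher by 5.14 ± 0.42 on the log2 scale (SE; adjusted p = 1.04e-09), Tnfrsf1b by 3.08 ± 0.19 (adjusted p = 7.26e-14) and Nfkbia by 1.09 ± 0.17 (adjusted p = 9.28e-06). Cd40 was lower, with 6 UMIs against 70 in EHT sums, a ratio of 26.0 in CPM (95% counting interval 11.3 to 73.1; edgeR adjusted p = 2.06e-05). For Tnfrsf1a the difference was 0.25 ± 0.11 (adjusted p = 0.0581, but 0.0455 without the first control pool and 0.0283 with DESeq2) and for Ltbr 0.07 ± 0.13 (adjusted p = 0.668). The median over the 10 genes was 0.26, beside -0.11 over all genes tested.

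In the megakaryocyte group 23% of genes were higher and 34.3% lower than in EHT sums, and of the 10 genes 1 was higher and 8 were lower. Tnf was the higher one, by 2.21 ± 0.61 (edgeR adjusted p = 0.00426). This call was lost in thinned cells (2.26, adjusted p = 0.0676) and with clusters in place of the marker groups (0.69, adjusted p = 0.275). In the first control and the second cKO pool the Tnf UMIs were near the number gauged from the macrophage genes. Transcripts of those genes made by the cells themselves would raise that number. In the first control pool the macrophage with 83 of the 124 Tnf UMIs raised it as well. Tnfrsf1a was lower, at -5.47 ± 0.21 (adjusted p = 1.21e-17), as were Ltbr at -2.43 ± 0.19, Relb at -2.30 ± 0.45, Nfkb1 at -2.05 ± 0.20, Nfkbia at -1.94 ± 0.23 and Nfkb2 at -1.04 ± 0.44 (adjusted p = 0.0460). The Nfkb2 call was lost without the first or the second control pool or the second cKO pool (adjusted p 0.122, 0.413 and 0.0603). Tnfrsf1b had 9 UMIs against 110, a ratio of EHT to megakaryocyte CPM of 13.9 (7.05 to 31.2), and Cd40 had 1 UMI against 70, a ratio of 79.5 (13.8 to 3185). Rela differed by 0.30 ± 0.18 (adjusted p = 0.160). The median over the 10 genes was -2.18, beside -0.17 over all genes tested.

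In the myeloid group 20.4% of genes were higher and 30% lower, and 2 of the 10 genes were higher and 3 lower. Tnf was higher by 3.02 ± 0.54 (edgeR adjusted p = 8.66e-05) and Tnfrsf1b by 0.95 ± 0.23 (adjusted p = 0.00101). The Tnf call was lost in thinned cells (2.06, adjusted p = 0.124), and with clusters in place of the marker groups both were lost (0.94 and 0.28, adjusted p 0.160 and 0.451). Of the 163 myeloid group cells 91 lay in myeloid, 43 in EHT and 29 in macrophage clusters. The Tnf UMIs gauged from the macrophage genes exceeded those seen in both pools of replicate 1. Transcripts of those genes made by the cells themselves would raise the gauge. In the first control pool the macrophage with 83 of the 124 Tnf UMIs raised it as well. Relb was lower, at -3.36 ± 0.53 (adjusted p = 7.86e-06), and so was Tnfrsf1a, at -0.37 ± 0.12 (adjusted p = 0.0115). The Tnfrsf1a call was lost without the second control or the first cKO pool (adjusted p 0.0573 and 0.0630), and that of Tnfrsf1b without the second cKO pool (0.0609). Cd40, with 3 UMIs, was the third, with a ratio of EHT to myeloid CPM of 22.4 (7.34 to 111). The Cd40 call was lost without the EHT cells high in Gja5 (-1.88, edgeR adjusted p = 0.135). The median over the 10 genes was -0.34, beside -0.09 over all.

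In the arterial group 28.6% of genes were higher and 25.5% lower, and 5 of the 10 genes were higher and 1 lower. Cd40 was higher by 4.16 ± 0.32 (edgeR adjusted p = 1.99e-09), Relb by 1.41 ± 0.30 (adjusted p = 0.000333), Nfkbia by 0.98 ± 0.17 (adjusted p = 5.09e-05), Ltbr by 0.93 ± 0.13 (adjusted p = 1.28e-06) and Nfkb2 by 0.90 ± 0.34 (adjusted p = 0.0282). Nfkb1 was lower, at -0.42 ± 0.15 (adjusted p = 0.0199). Tnfrsf1a differed by 0.04 ± 0.12 (adjusted p = 0.774). The Nfkb1 call was lost without the first control pool or either cKO pool (adjusted p 0.0509, 0.0807 and 0.0851) and with DESeq2 (0.0547), and the Nfkb2 call without either cKO pool (0.156 and 0.138). In the control sums alone the Nfkb2 difference was -0.00048, and 2 of the 10 genes passed, Ltbr and Cd40. The median over the 10 genes was 0.54, beside 0.02 over all.

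In the plexus group 18.9% of genes were higher and 18.1% lower, and 6 of the 10 genes were higher and 2 lower. The plexus sums came from 6 to 22 cells. Without the second cKO pool 5 of the 10 genes passed, and in the control sums alone 2 did. Cd40 was higher by 4.57 ± 0.35 (edgeR adjusted p = 4.08e-09), Relb by 2.07 ± 0.36, Nfkbia by 1.46 ± 0.18, Nfkb2 by 1.32 ± 0.45, Ltbr by 0.86 ± 0.17 and Tnfrsf1a by 0.54 ± 0.14 (adjusted p = 0.00238). Nfkb1 was lower, at -0.56 ± 0.21 (adjusted p = 0.0369), and Tnfrsf1b at -1.68 ± 0.54 (adjusted p = 0.0157). The calls of Nfkb2 and Tnfrsf1a were lost without the second cKO pool (adjusted p 0.529 and 0.0747), that of Tnfrsf1b without either pool of replicate 1 (0.0582 and 0.0640) and that of Nfkb1 without the second control pool or either cKO pool (0.0535, 0.433 and 0.0952) or with DESeq2 (0.0884). In thinned cells the Tnfrsf1a and Tnfrsf1b differences were 0.27 and -0.02 (adjusted p 0.557 and 0.998). The median over the 10 genes was 0.70, beside -0.07 over all. The 5 comparisons share the EHT sums and are not independent of one another.

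**Figure D2:**
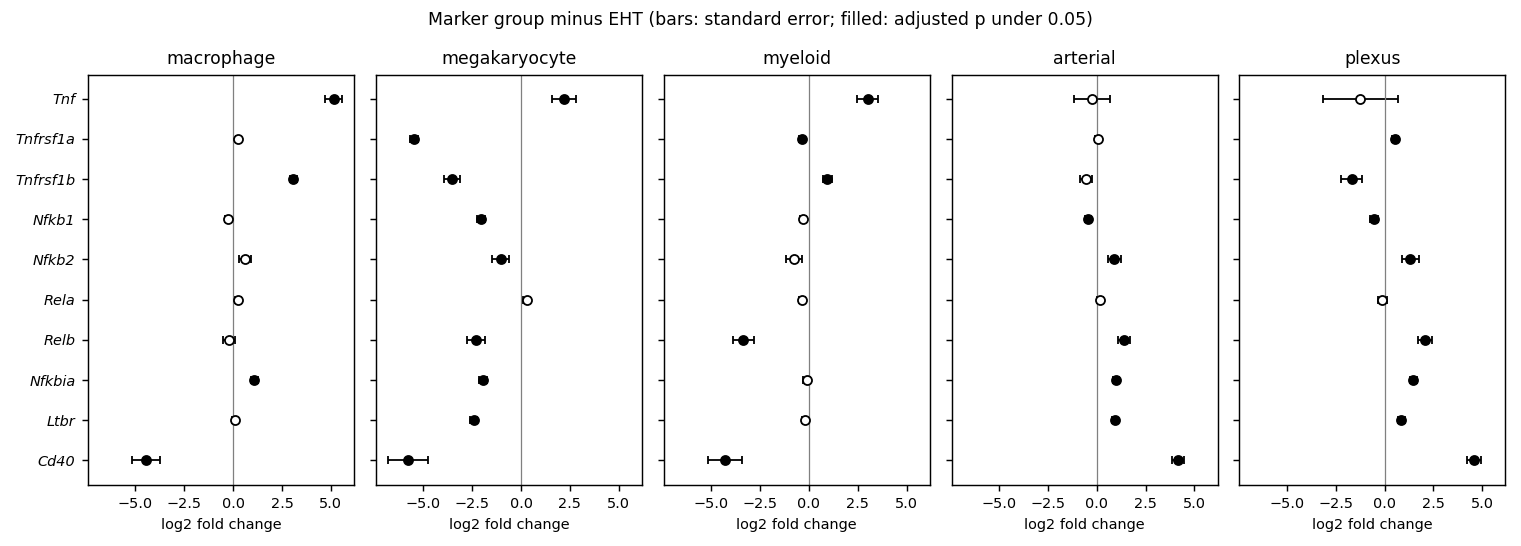
Log2 fold change of each gene in 5 marker groups against the EHT group, with the standard error as a bar and filled points for an adjusted p under 0.05 in edgeR. Tnf is to the right in the macrophage, myeloid and megakaryocyte panels (5.14, 3.02 and 2.21), and Cd40 is to the right in the arterial and plexus panels (4.16 and 4.57) and to the left in the others.

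A list of 68 further genes of the pathway (other ligands, other receptors, the sheddase and adaptors, Rel and inhibitors, targets) had 57 members in the fit. In macrophages 29 of these were higher and 12 lower than in EHT sums, with a median of 0.44 beside -0.11 over all genes. Of all genes tested 24.6% were higher and 34.1% lower. The targets had the largest differences: Ccl3 and Ccl4, chemokines of activated macrophages, were higher by 6.31 ± 0.99 and 6.30 ± 0.88, and Bcl2a1b, a survival gene of the Bcl2 family, by 6.2 ± 0.32 (edgeR adjusted p = 1.84e-13). Of the 20 adaptor genes tested, 9 were higher and 2 lower.

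In megakaryocytes 13 of the 57 genes were higher and 23 lower (median -0.59, beside -0.17 over all), led by the targets Tnfaip2 at -6.30 ± 0.52, Icam1, an adhesion molecule, at -5.63 ± 0.51, and Csf1, the macrophage growth factor, at -5.11 ± 0.62. In the myeloid group 17 were higher and 13 lower (median 0.14, beside -0.09), and of all genes 20.4% were higher and 30% lower. Ccl3 was higher there by 3.67 ± 0.98 (edgeR adjusted p = 0.00591, and 0.0836 without the second control pool) and Csf1 was lower, at -3.29 ± 0.47. The chemokine Cxcl1 had 1 myeloid UMI and 15 EHT UMIs, a ratio of EHT to myeloid CPM of 14.4 (2.21 to 605), and its call was lost without any 1 of 3 pools (adjusted p 0.0504 to 0.109).

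In the arterial group 13 of the 57 genes were higher and 12 lower (median -0.04, beside 0.02), and in the plexus group 7 were higher and 11 lower (median 0.00151, beside -0.07). Of all genes 28.6% were higher and 25.5% lower in the arterial group, and 18.9% and 18.1% in the plexus group. The cytokine Il1b and the ligand Tnfsf14 had no UMI in arterial sums, where EHT sums held 72 and 20, so that EHT levels were at least 14.6-fold and 4.05-fold higher against a floor of 3 UMIs over the group. The Il1b call was lost without the first control pool (edgeR adjusted p = 0.0762). That of Tnfsf14 was lost in thinned cells (0.341) and in control sums alone (0.113). Selp, the gene of P-selectin, had 2 arterial and 71 EHT UMIs, a ratio of EHT to arterial CPM of 21.6 (5.76 to 182). Selp and Tnfrsf13b, a receptor best known from B cells, had no plexus UMI. EHT levels were 4.27-fold and 3.97-fold the floor, with exact intervals from 3.38-fold and 3.14-fold. Both calls were lost in control sums alone (edgeR adjusted p 0.182 and 0.133), and that of Tnfrsf13b also in thinned cells (0.230). Tnfrsf9, a costimulatory receptor, went the other way, with 21 plexus and 2 EHT UMIs, a ratio of plexus to EHT CPM of 58.2 (14.2 to 512).

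The question whether Tnf-bearing macrophages also differed in the receiver genes was put to thinned cells, where 95 macrophages had a Tnf UMI and 462 had none. Tnf made the classes and was not tested. Of 4013 genes tested, 0.698% were higher and 0.0997% lower in the Tnf-positive cells, and of the 5 of the 10 genes that passed the filter 1 was higher. This was the inhibitor gene Nfkbia. Its levels were 100, 126, 186 and 171 CPM in the Tnf-negative and 614, 359, 500 and 334 CPM in the Tnf-positive sums. Every positive sum was above every negative sum, and the difference was 1.40 ± 0.15 (edgeR adjusted p = 7.64e-08). In cells that were not thinned the Nfkbia difference was 1.13, with an adjusted p of 0.283. Tnfrsf1b was lower in the positive sum of each of the 4 pools (47.1, 70.2, 62.2 and 58.3 CPM against 14.3, 40.6, 55.6 and 42.6 CPM), with a difference of -0.58 ± 0.26 that missed the threshold (adjusted p = 0.688). The positive sums of replicate 1 hold few cells. Even before thinning only 12 macrophages of the first control and 19 of the first cKO pool had a Tnf UMI. Low CPM values in these sums therefore rest on few UMIs. Tnfrsf1a differed by -0.05 ± 0.21, Rela by 0.17 ± 0.33 and Ltbr by 0.28 ± 0.31.

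In Tnf-positive macrophages 0.698% of all genes were higher. Of the 68 pathway genes 16 were tested and 3 were higher there, with a median of 0.43 beside -0.000744 over all genes. They were Ier3, an early response gene, at 1.41 ± 0.17 (edgeR adjusted p = 4.96e-07), the chemokine Cxcl10 at 1.36 ± 0.30 (adjusted p = 0.0115) and Nfkbiz, an atypical inhibitor family member, at 1.14 ± 0.28 (adjusted p = 0.0390). The calls of Cxcl10 and Nfkbiz were lost without the first (adjusted p 0.139 and 0.168) or the second cKO pool (0.907 and 0.422) and with DESeq2 (1.00 and 0.298). Cxcl10 was not higher in every pool: its levels were 58.8, 24.1, 48.6 and 20.0 CPM in negative and 28.6, 31.2, 200 and 78.7 CPM in positive sums. The 28.6 CPM of the first control pool rests on few cells and UMIs. Immediate-early genes moved with this split. Of 8 tested, 4 passed (Junb 1.45 ± 0.18, Dusp1 1.2 ± 0.19, Zfp36 1.13 ± 0.14 and Jun 0.42 ± 0.08), and all 8 had positive values, with a median of 1.19. Jun was lost without either control pool or the second cKO pool (adjusted p 0.108 to 0.446). These genes are also known to rise during tissue dissociation, and their part in the Nfkbia difference was not tested.

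**Figure D3:**
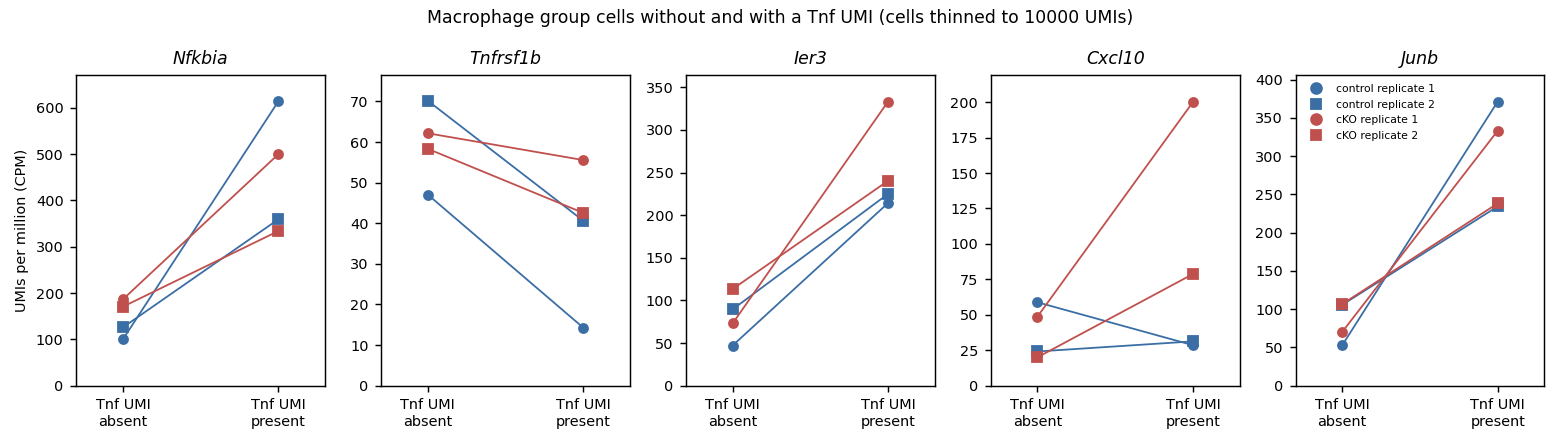
CPM (UMIs per 1000000) in thinned macrophage group cells without and with a Tnf UMI. Each line joins the sums of 1 pool, with circles for replicate 1, squares for replicate 2, blue for control and red for cKO. Nfkbia runs from 100 to 186 CPM without and from 334 to 614 CPM with a Tnf UMI. Cxcl10 falls in the first control pool, from 58.8 to 28.6 CPM, where the positive sum holds few cells.

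The genes whose level ran most like that of Tnf over the 23 sums, among 11428 compared, were Pepd (Pearson's r = 0.910), F13a1 (0.896), Sppl2a (0.893), Cryba4 (0.889) and Vps26a (0.883). For Tnfrsf1b they were Arsb (0.962), Tlr2 (0.949), Tep1 (0.946), Gm2a (0.944) and Pi4k2a (0.937). The points share pools and lanes, and 4 of the 23 are macrophage sums, so the values are descriptions.

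Whether loss of Nupr1 changed these genes was asked within each marker group, with 2 sums against 2. Nupr1 itself was at -3.63 ± 0.44 in cKO against control EHT sums (edgeR adjusted p = 0.00264, and 0.143 with the replicate as a block). None of the 10 genes passed an adjusted p of 0.05 in the 6 groups by edgeR or DESeq2, or with the replicate as a block in the 5 groups where it could be fitted, which leaves out the megakaryocytes. The share of all genes called was as low: 0% of 10567 in macrophage, 0.0196% in megakaryocyte, 0.0212% in myeloid, 0% in arterial, 0% in plexus and 0.00972% in EHT sums. At an unadjusted p under 0.05 edgeR gave 0 of 9 genes tested in macrophages, 0 of 8 in megakaryocytes, 0 of 8 in myeloid cells, 1 of 9 in arterial, 0 of 7 in plexus and 1 of 9 in EHT sums, and DESeq2 gave 1, in EHT sums. With the replicate as a block 2 of 9 were under it in arterial sums, Nfkb2 and Nfkbia, 1 in EHT sums, Cd40, and 0 in the other 3 groups fitted. Over all genes edgeR without a block put 43 of 10567 under it in macrophage and 79 of 9413 in myeloid sums. It put 118 of 9849 under it in arterial, 44 of 5873 in plexus and 112 of 10292 in EHT sums. The block put 632 of 9849 under it in arterial and 276 of 10292 in EHT sums. Over the genes tested the differences ran from -0.64 to 0.05 in macrophage, -1.38 to 1.21 in megakaryocyte, -0.29 to 0.38 in myeloid, -0.25 to 0.97 in arterial, -0.93 to 0.81 in plexus and -1.90 to 0.37 in EHT sums, with standard errors of 0.24 to 1.22. The megakaryocyte comparison had a single cKO sum, which is assumed to vary like the controls.

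For the ligand, the macrophage sums were 83.7 and 20.9 CPM in control and 23.7 and 36.6 CPM in cKO, and both cKO values lay between the controls. The difference was -0.64 ± 0.57 (edgeR adjusted p = 1.00). It was 0.51 without the first control sum and 0.11 without the highest cell of each pool, so its direction rested on that sum and that cell. Tnf did not pass the filter in arterial, plexus and EHT sums, which held 9, 1 and 16 Tnf UMIs.

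The gene at an unadjusted p under 0.05 in EHT sums was Cd40, at 3.48 and 12.7 CPM in control and 2.44 and 1.67 CPM in cKO. The difference was -1.90 ± 0.64 (edgeR adjusted p = 1.00). It was -2.55 without the first control sum (adjusted p = 0.0270) and -0.70 without the second (adjusted p = 1.00). The share of EHT cells high in Gja5 was 12.9% and 24% in the control and 20.8% and 14.3% in the cKO pools. Within the cells high in Gja5 Cd40 stood at 25.0 and 55.5 CPM in control sums, from 12 and 33 UMIs. In cKO sums it stood at 10.3 and 16.2 CPM, from 8 and 6 UMIs. In arterial sums the gene was Nfkb2, at 8.68 and 6.68 CPM in control and 17.9 and 12.7 CPM in cKO. The difference was 0.97 ± 0.36 (edgeR adjusted p = 1.00). In EHT sums Nfkb2 lay the other way, at 7.49 and 7.14 CPM in control and 3.91 and 4.45 CPM in cKO, with a difference of -0.76 ± 0.47 (adjusted p = 1.00). Nfkbia, the other gene under the blocked fit in arterial sums, stood at 155 and 240 CPM in control and 215 and 290 CPM in cKO, higher in both pairs although the groups overlapped, with a difference of 0.38 ± 0.27. In EHT sums it was lower in both pairs, at 121 and 121 CPM in control and 89.7 and 102 CPM in cKO, with a difference of -0.29 ± 0.27 (adjusted p = 1.00 in both groups). Tnfrsf1a differed between genotypes by 0.04 ± 0.33 in EHT and -0.03 ± 0.30 in macrophage sums, and Rela by -0.17 ± 0.33 and -0.11 ± 0.28.

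**Figure D4:**
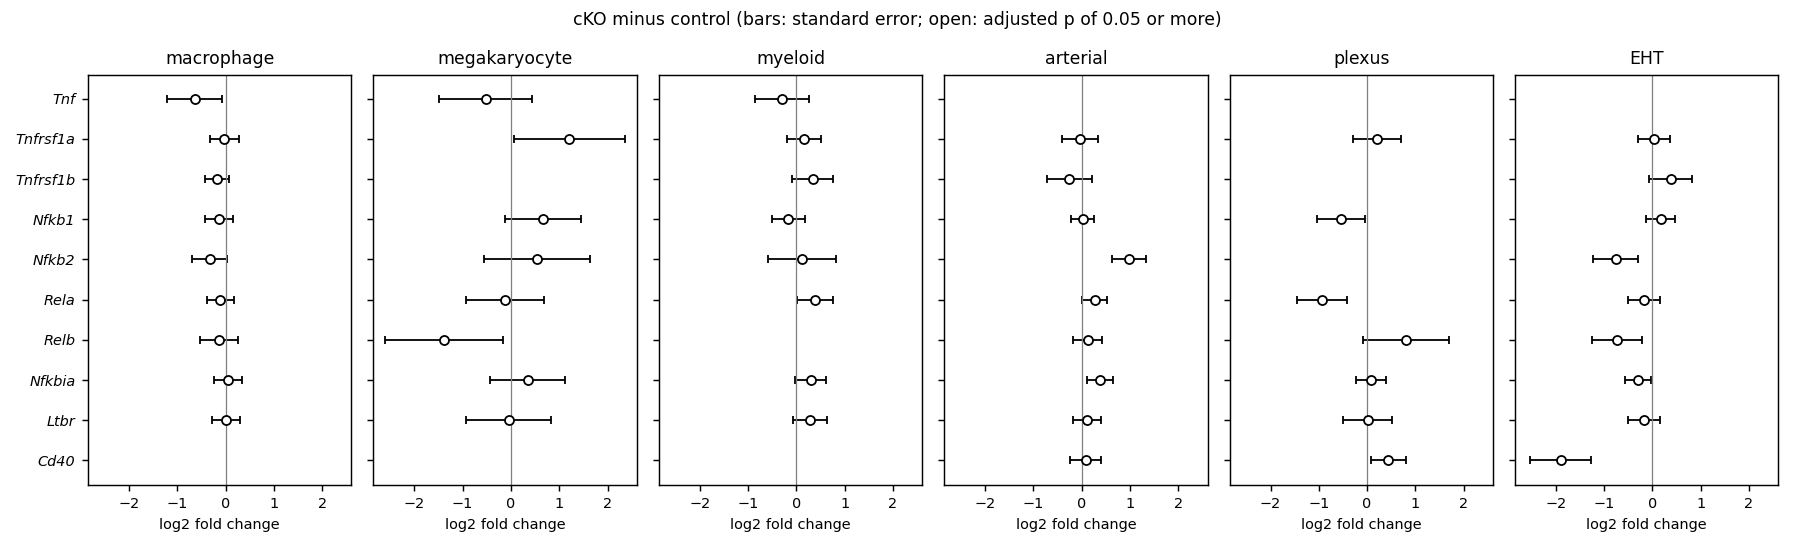
Log2 fold change of each gene in cKO against control sums of the 6 marker groups, with the standard error as a bar. All points are open, which stands for an adjusted p of 0.05 or more in edgeR, and a gene without a point did not pass the filter on low counts in that group. The values farthest from 0 in the arterial and EHT panels are Nfkb2 (0.97) and Cd40 (-1.90).

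The genotype differences were set against each other between groups with an interaction contrast. For EHT minus macrophage 0% of 10893 genes and none of the 10 passed in edgeR, 0 of the 10 had an unadjusted p under 0.05, and the same was found with the replicate as a block. Tnf was at 1.25 ± 1.23 and Cd40 at -1.86 ± 1.64. Tnf had 16 UMIs in EHT sums and Cd40 had 6 in macrophage sums. Each gene failed the filter in that group alone and passed here through the other group. Their values therefore cannot show whether the genotype difference varied between the groups. The contrasts of EHT minus myeloid, arterial and plexus, taken from the joint fit after the values had been seen, also called 0% of 12381 genes, with 0, 2 and 1 of the 10 at an unadjusted p under 0.05. The share of all genes at that unadjusted cut is not given for these contrasts, so the counts are not read as a result. Cd40 was at -1.96 ± 0.70 against arterial and -2.37 ± 0.73 against plexus sums, Nfkb2 at -1.74 ± 0.73 and Nfkbia at -0.66 ± 0.48 against arterial sums, all with an edgeR adjusted p of 1.00. Of the 68 pathway genes, 13 to 53 were tested per group for the genotype, and none passed in the 5 groups with 2 sums a genotype. In megakaryocytes, with 1 cKO sum and a control sum of 4 cells, the chemokine Cxcl2 stood at 0 and 0.553 CPM in control and 21.3 CPM in cKO. This value has no replicate check and no test is drawn from it.

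Because EHT sums lay between endothelial and blood groups in Cd40, the EHT group was divided by Gja5, an arterial gene, after these values had been seen. Of its 240 cells 43 were high in Gja5, 12.9%, 24%, 20.8% and 14.3% of the EHT cells of the 4 pools. The EHT rule was applied before the arterial rule, so cells high in Gja5 that met both were placed in EHT. By cluster, 190 EHT group cells lay in EHT, 47 in arterial, 2 in myeloid and 1 in macrophage clusters. Whether the Gja5-high cells were arterial cells taken in by the marker rule was not tested. Gja5 also defines the arterial group, in which Cd40 (4.16) and Ltbr (0.93) were already higher than in EHT sums. The tests of this division are therefore not independent of that comparison. In edgeR with the pool as a block, 12.9% of 8875 genes were higher and 10.1% lower in the Gja5-high cells, and of the 9 of the 10 genes tested 2 were higher, Cd40 and Ltbr. Cd40 stood at 0.307, 3.05, 0.603 and 0 CPM in Gja5-low and 25.0, 55.5, 10.3 and 16.2 CPM in Gja5-high sums. Each high sum was above each low sum, and the difference was 4.70 ± 0.48 (adjusted p = 2.80e-06). The Gja5-high cells held 59 of the 70 Cd40 UMIs of the EHT group, or 84.3%, and 15.2% of all its UMIs. Ltbr stood at 23.6, 32.4, 23.8 and 27.6 CPM in low and 54.1, 55.5, 36.0 and 40.4 CPM in high sums, again without overlap, a difference of 0.72 ± 0.20 (adjusted p = 0.0145). The Ltbr call was lost without the first or the second control pool (adjusted p 0.105 and 0.0652) and with DESeq2 (0.113). Relb differed by 1.14 ± 0.47 (adjusted p = 0.0989), with 38.7 CPM in the high sum of the second control pool and 3.86 to 10.8 CPM in the others. Nfkb1 differed by -0.52 ± 0.21 (adjusted p = 0.0926), Nfkbia by 0.26 ± 0.16 and Tnfrsf1a by -0.14 ± 0.16.

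**Figure D5:**
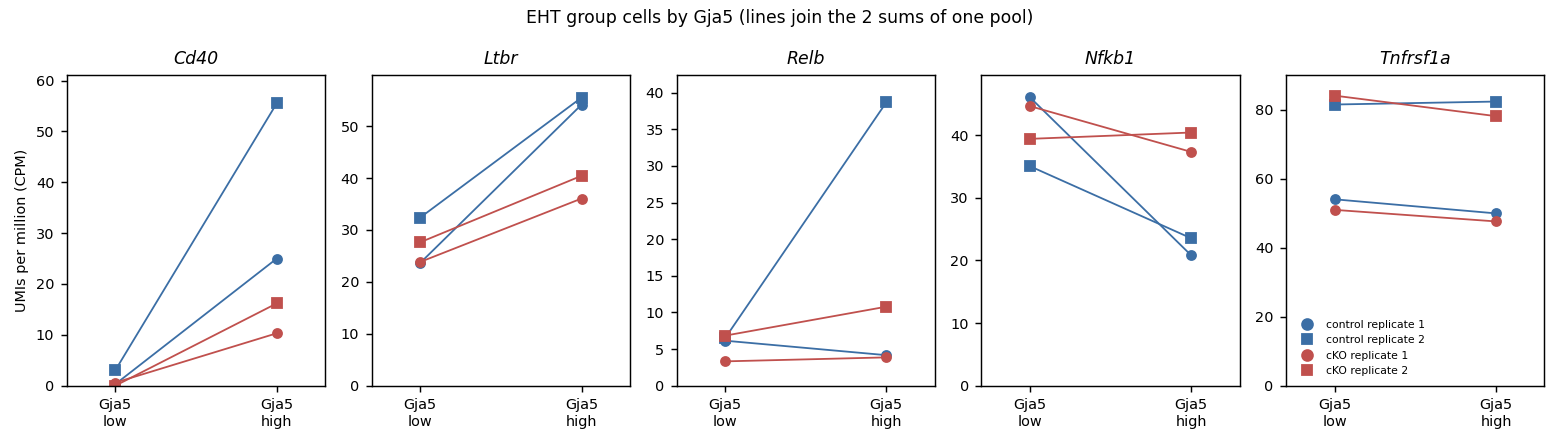
CPM (UMIs per 1000000) of 5 of the genes in EHT group cells low or high in Gja5. Each line joins the sums of 1 pool, with circles for replicate 1, squares for replicate 2, blue for control and red for cKO. Cd40 runs from 0 to 3.05 CPM in the low and from 10.3 to 55.5 CPM in the high sums, and the Relb rise is carried by the second control pool (38.7 CPM).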

How the data were processed

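CD31+CD44+ cells of the E10.0 caudal region were profiled by 10x Genomics scRNA-seq in 2 replicates. Reads were processed by the authors with Cell Ranger 5.0.1 on mm10 (the submitters' processing notes), and hashtag singlets were taken with HTODemux in Seurat. For each replicate the authors deposited raw UMI counts of every gene in every cell, not normalized, and the hashtag of each cell. All 2139 cells were kept. The stated limits (over 1800 genes and 6000 UMIs, under 5% mitochondrial reads) were met by 280, 748, 297 and 713 of the cells of the 4 pools. No doublet caller was run here, since singlets had been selected by hashtag.

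Cells were grouped by marker genes: C1qa, Gp9, Gja5 and Mpo at or above the Otsu split of log2(1 + UMIs per 10000), and at least 1 UMI of Fcgr3, Gfi1 with Neurl3, or Kitl with Esm1. UMIs were summed per group, genotype and replicate, and compared with edgeR 4.0.16 (R 4.3.3; filterByExpr, TMM, robust quasi-likelihood test, Benjamini-Hochberg adjustment over all genes tested, threshold 0.05). Comparisons between groups had the pool as a block. Genotypes were compared without a block, as the main setting. Same-numbered sums came from 1 lane, and their deviations from the group means correlated across genes with r = 0.306 to 0.477, so the replicate numbers pair the sums. Standard errors were taken from the F statistic. Shares have exact Clopper-Pearson 95% intervals, ratios of UMIs exact conditional 95% intervals, and 0 UMIs a floor of 3. The procedure was tested on simulated sums.

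The members and all gene lists were chosen with earlier results of these data known. Every one of the 10 genes is named, and from the 68 pathway genes the 3 with the largest absolute log2 fold change among those called in each comparison, plus the 5 genes most correlated with Tnf and with Tnfrsf1b (Pearson, log2 CPM, prior count 2). From the Gja5 division of the EHT group these 3 are Tnfaip2 (1.00), Icam1 (0.85) and Ier3 (-0.69). Alternatives were the replicate block, DESeq2 1.42.0, RLE scaling, keeping low-count genes, omission of each sum or pool, control sums alone, Scanpy 1.11.5 clusters (2000 genes, 20 principal components) in place of marker groups, a fixed marker threshold of 2 UMIs per 10000, the stated cell limits, thinned cells and 1 fit over all groups. The division by Gja5, EHT cells without high Gja5, and leaving out the cell highest for Tnf were added after the data were seen. Positions are from GENCODE M21 on GRCm38.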

Additional observations from a re-analysis of the deposited data

Results flagged for a closer look

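Over the 10 genes and 5 marker groups with 4 sums, 4 of 50 sets had a highest or lowest sum far from the other 3 by Dixon's limit for 4 samples, and chance gives about 1 in 20. Tnf in the plexus group stood at 2.70 CPM in the first control pool, from 1 UMI, and at 0 in the other 3 pools. Nfkb2 in the macrophage group stood at 12.1 CPM in the first control pool and between 6.88 and 7.22 CPM in the others. Cd40 in the myeloid group stood at 1.29 CPM in the first cKO pool, again from 1 UMI. Cd40 in the EHT group stood at 12.7 CPM in the second control pool and between 1.67 and 3.48 CPM in the others.

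Cells outside the 6 groups also carried these genes. Of the 487 cells with none of the marker sets, the 128 with a C1qa UMI below the macrophage threshold had Tnf at 24.1 CPM and the 359 without one at 7.40 CPM, against 1.09 CPM over all EHT group cells. The 9 macrophage genes summed to 3602 and 508 CPM in the same cells, and their part in the Tnf level was not tested. In the 63 cells with arterial and plexus markers together Cd40 had a mean of 98.6 CPM over the 4 pools, between the arterial (89.6 CPM) and plexus (104 CPM) means.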

How the results depend on the processing

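Of 745 values of the 10 genes against the EHT group under the alternatives, 652 kept their direction and their side of the threshold, 51 lost and 20 gained significance, and 22 reversed. Reversed values of genes in macrophages were Nfkb1 at 0.014 and Relb at 0.31 with clusters, Relb at 0.10 without EHT cells high in Gja5, and Ltbr at -0.0068 in control sums alone. Relb there ran from -0.34 to 0.026 with 1 pool left out, and was above 0 without the second control pool. In megakaryocytes thinning put Rela at -0.087. In myeloid sums clusters put Rela at 0.041 and Nfkbia at 0.46, and Nfkbia was at 0.031 with the fixed threshold and 0.043 in thinned cells. With 1 pool left out Nfkbia ran from -0.34 to 0.0098, the latter without the first control pool. In arterial sums Tnf was at 0.00024 with cells of both markers added and 0.82 in thinned cells. Tnfrsf1a ran from -0.018 to 0.13 with 1 pool left out, below 0 without either pool of replicate 2, and was at -0.083 in thinned cells. Nfkb2 was at -0.00048 in control sums alone, and Rela at -0.064 there and -0.017 in thinned cells. In plexus sums control sums alone put Tnf at 0.68 and Rela at 0.32, and with 1 pool left out Rela ran from -0.26 to 0.025, the latter without the first cKO pool. For cKO against control macrophages Tnf ran from -1.38 without the second to 0.51 without the first control sum, and was at 0.029 in thinned cells and 0.11 without the highest cells. The causes were not tested.

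Among the 10 genes 8 passed against EHT in macrophages with clusters, which were made without these genes. In arterial sums 2 passed in control sums alone. In plexus sums 2 passed in control sums alone, 5 in thinned cells and 5 to 7 with 1 pool left out, in place of 8. For Tnf-positive macrophages 0 passed without thinning. For the Gja5 division 1 passed with DESeq2 and 1 to 2 with 1 pool left out. For cKO against control EHT sums 0 to 1 passed with 1 sum left out, the 1 being Cd40 without the first control sum.

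Counts over all genes moved by more than 1.5 times as follows. With the replicate as a block, the genotype called 2 genes in place of 0 in macrophages, 5 in place of 2 in myeloid, 37 in place of 0 in arterial and 0 in place of 1 in EHT sums, and the block changed no call among the 10 genes. Without the low-count filter it called 4, 4, 11, 7, 4 and 35 genes in macrophage, megakaryocyte, myeloid, arterial, plexus and EHT sums, and the difference between EHT and macrophage 20. DESeq2 called 1 gene in macrophage, 0 in megakaryocyte and 2 in EHT sums. With 1 sum left out the genotype called 4 to 27 genes in macrophage, 4 to 41 in myeloid, 1 to 12 in arterial, 3 to 18 in plexus and 9 to 70 in EHT sums. Clusters called 0 in myeloid and EHT and 5 in plexus sums. The single fit over all groups called 1 in macrophage and 0 in megakaryocyte, myeloid and EHT sums, thinned cells 0 in megakaryocyte, myeloid and EHT sums, and the fixed threshold and the stated cell limits 1 each in myeloid sums. The 32 genes of Tnf-positive macrophages became 4 without the pool block, 15 with DESeq2, 95 without thinning and 19 to 50 with 1 pool left out. The 2044 genes of the Gja5 division became 1329 without the block and 1337 without the second control pool. In control sums alone, 4132, 3452, 3354 and 1352 genes were called against EHT in macrophage, myeloid, arterial and plexus sums, and in thinned cells 3731, 3357, 2627, 3636 and 1888 in the 5 groups, where fewer genes were tested. RLE in place of TMM moved the median of all genes by at most 0.08.

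Depth limits Tnf outside macrophages, with 9 arterial, 1 plexus and 16 EHT UMIs, and Cd40 in the blood groups. With 2 sums a genotype, differences of the sizes seen for Nfkb2 and Cd40 did not pass the adjustment.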
